A study of Mus musculus with 6 samples.

Results

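The cells described here were Cthrc1+ Pdgfra+ cells of the injured mouse sciatic nerve, labelled day 5 injury fibroblasts. A cell was included when its barcode in the day 5 library had at least 1000 unique molecular identifiers (UMIs, each standing for 1 captured RNA molecule) and less than 10% mitochondrial UMIs, when both Pdgfra and Cthrc1 had at least 1 UMI, and when Sox10 (Schwann cells), Cdh5 (endothelial cells), Myh11 (smooth muscle) and Cldn1 (perineurial cells) were all at 0. This gave 183 of the 1482 day 5 cells (12.3%, 95% exact binomial interval 10.7 to 14.1) and of 11524 cells in the 5 libraries analysed. The study performed single-cell RNA sequencing on stromal cells from adult C57BL/6J wild-type mice after partial sciatic nerve ligation (PSNL), in which part of the nerve is tied off, or after sham surgery, in which the nerve is only exposed. Nerve around the lesion was dissociated and live, nucleated, myelin-, CD45- and Ter119- cells were sorted, so that leukocytes and red cell precursors were depleted by design. Each 10X Chromium library held the pooled cells of 4 ipsilateral nerves, from equal numbers of male and female mice. Batch 1 held a sham and a PSNL library at month 2, and batch 2 held a sham and a PSNL library at month 2 and the PSNL library at day 5. The methods give the early time point as 4 to 6 days after ligation, and the sham day 5 library was not analysed here. All 183 cells therefore come from 1 library, no test between time points was made, and for every comparison with month 2 below, time after injury and the library itself cannot be told apart.

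Fibroblasts of a peripheral nerve lie around the fascicles in the epineurium and between the axons in the endoneurium, where they make and turn over the collagen-rich matrix that carries the axons. After an injury, fibroblasts near the lesion can become activated: they divide, secrete collagen and the enzymes that cross-link it, and release chemokines and acute-phase proteins that draw in leukocytes. Pdgfra encodes a receptor for platelet-derived growth factor and is a common marker of fibroblasts, while Cthrc1 encodes a secreted collagen triple helix repeat protein known from activated fibroblasts in scars.

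Depth varied between the groups compared. The 183 day 5 cells had a median of 13303 UMIs (range 1263 to 58932) and 3942 detected genes, and their summed UMIs came to 2914915. The 4 month 2 libraries held 408 and 995 (sham) and 905 and 1011 (PSNL) Pdgfra+ cells that passed the same exclusion of Sox10, Cdh5, Myh11 and Cldn1, with median depths of 3175 to 5444 UMIs. Levels are given as CPM, the UMIs of a gene summed over the cells of a group and scaled to the same total in every group. Shares of cells with a UMI are also given after each cell was thinned to 1000 UMIs. Intervals are 95% exact intervals and cover counting error only.

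All 8 fibroblast markers were detected, of which Pdgfra was required by the rule, and they summed to 70368 CPM, against 34589.5 to 48762 CPM at month 2. The sum was carried by collagens. Col1a1, Col1a2 and Col3a1, which encode the main fibrillar collagens, stood at 25364, 14680 and 23932 CPM in the 183 cells and Pdpn, a fibroblast surface glycoprotein, at 390.4 CPM. The other markers of the list lay below every month 2 library: Pdgfra was 2.20-fold and Fbln1, encoding the matrix protein fibulin-1, 1.73-fold lower, and Dcn and Lum, described below, were called lower. A Pdgfra UMI was required of the cells at both time points, and the month 2 cells were shallower. The part of the rule and of depth in the Pdgfra ratio was not tested. The defining markers of the excluded lineages were at 0 by the rule, and their companion markers were low: Schwann cell genes summed to 26.4 CPM against 52.9 to 207 at month 2, mural genes to 79.9 against 31.1 to 64.3, perineurial genes to 26.1 against 16.9 to 25.9 and endothelial genes to 189 against 135 to 593. Most of the endothelial sum was Pecam1 at 178 CPM, a gene that stood at 4878 CPM in barcodes of 10 to 100 UMIs, which hold mainly free RNA; the part of free RNA in its level was not tested. Leukocyte genes summed to 156 CPM against 4.98 to 8.92 at month 2, with all 9 listed markers detected. That sum came largely from a single cell, described below, and in the other 182 cells it was 10.7 CPM. Scrublet, a doublet caller, marked none of the 183 cells, and 10 of the 1482 cells of the library.

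By the choice of the marker genes, Cthrc1, Saa3, Cxcl5, Lox and Timp1 are high in these cells, and their values are given as a description. Cthrc1 (GRCm38, chr15:39076932-39087121, + strand) stood at 789 CPM (757 to 822) at day 5. At month 2 its level in Pdgfra+ cells was 13.8 and 5.56 CPM in the sham and 9.02 and 11.8 CPM in the PSNL libraries, so that the month 2 groups overlapped. Saa3 (chr7:46711998-46715700, - strand), an acute-phase serum amyloid A protein, was at 1076 CPM (1039 to 1115), and at month 2 at 6.05 and 9.20 CPM in sham and 8.40 and 13.0 CPM in PSNL libraries, 117-fold below on the mean. Cxcl5 (chr5:90759360-90761624, + strand), a chemokine that attracts neutrophils, was at 608 CPM (580 to 637), while the month 2 libraries held 13 UMIs in all, or 0.214 to 1.87 CPM. Lox, the lysyl oxidase that starts collagen cross-linking, was at 849 CPM (816 to 884) against 138 and 133 CPM in sham and 89.6 and 123 CPM in PSNL libraries, a 7.02-fold difference and the smallest of the 5. Timp1 (chrX:20870166-20874735, + strand), an inhibitor of matrix metalloproteinases, was at 1066 CPM (1028 to 1104) against 24.2 and 24.6 CPM in sham and 34.2 and 29.2 CPM in PSNL libraries, or 38.0-fold higher.

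**Figure D1:**
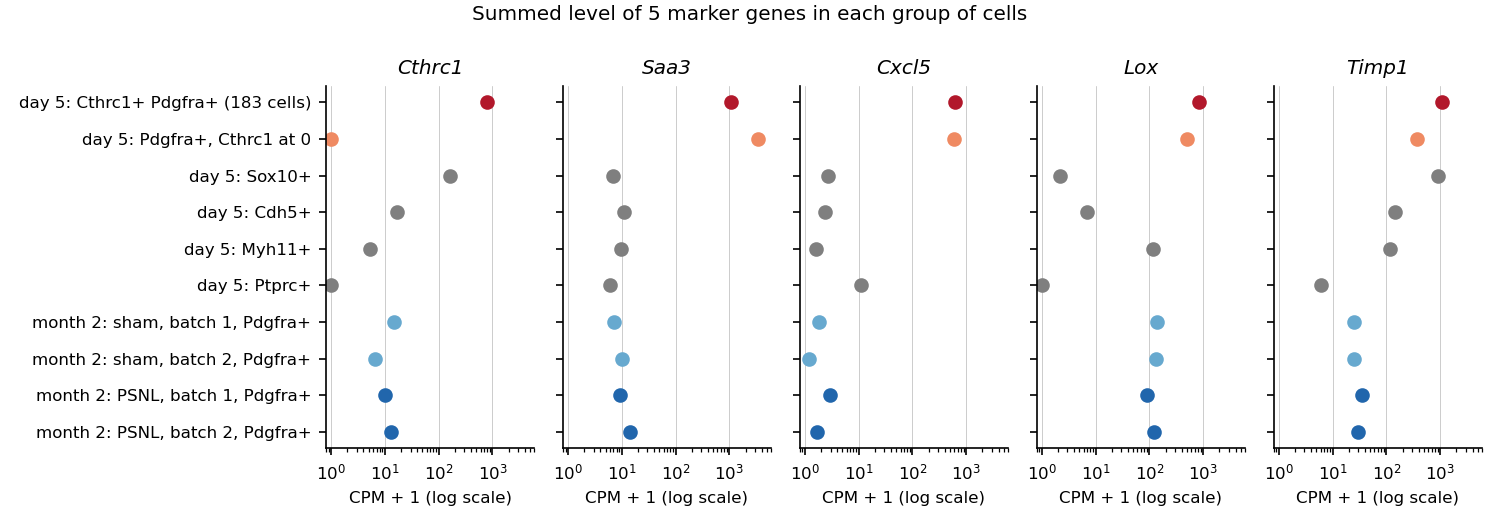
Summed level of 5 marker genes in the 183 day 5 cells, in other day 5 cells and in the Pdgfra+ cells of each month 2 library; each point is 1 group of cells, on a log axis of CPM + 1. Saa3 and Cxcl5 were high in Pdgfra+ day 5 cells with and without Cthrc1, whereas Timp1 was also high in Sox10+ day 5 cells (892 CPM).

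Within day 5 the 5 markers were spread unevenly over the other cells. Saa3, Cxcl5 and Lox stood at 5.91, 1.74 and 1.22 CPM in the 419 Sox10+ cells and at 9.78, 1.34 and 5.95 CPM in the 418 Cdh5+ cells. Timp1, in contrast, was at 892 CPM in Sox10+, 147 CPM in Cdh5+ and 114 CPM in Myh11+ cells, and Cthrc1 itself was at 165 CPM in Sox10+ cells. Free RNA of the library held Timp1 at 452 and Cthrc1 at 176 CPM, and its part in the levels of other classes was not tested. The 43 Pdgfra+ day 5 cells without a Cthrc1 UMI had Saa3 at 3381 CPM, above the 1076 CPM of the 183 cells, and Cxcl5 at 593 CPM. A Saa3 UMI was found in 27.9% of the 43 cells. Lox and Timp1 stood at 496 and 366 CPM in them. The 183 cells were 1.71-fold and 2.91-fold higher for these 2 genes, below the 4-fold limit.

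Cells on either side of the threshold of 1 Cthrc1 UMI differed in level for some genes. Of the 226 Pdgfra+ day 5 cells, 81.0% (75.2 to 85.9) had a Cthrc1 UMI. The 16 cells just inside, with exactly 1 Cthrc1 UMI, had a median of 9431.5 UMIs, and the 43 cells just outside had a median of 6420. Saa3 was at 5935 CPM in the former, 3381 CPM in the latter and 795 CPM in the 167 cells with at least 2 Cthrc1 UMIs. The first value rests on few cells, since 5 of the 16 held 924 of their 945 Saa3 UMIs and 9 had none, and over 179 of the 183 cells, thinned to 3000 UMIs, Cthrc1 and Saa3 had a Spearman rho of 0.02. Col1a1 was at 25710 CPM just inside and 10046 CPM just outside. A further 29 cells with both UMIs were left out for a UMI of an excluded lineage, of which 18 had Cldn1. When cells were thinned to 1000 UMIs before the rule, 1.42% of day 5 cells met it.

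Against the mean of the 4 month 2 libraries, 195 of 7242 genes at 20 CPM or more in either group were at least 4-fold higher in the 183 cells and above every month 2 library (2.69%), and 183 were at least 4-fold lower and below every library (2.53%). Such genes are called higher or lower below, as a description of these libraries. The median log2 ratio over all 7242 genes was 0.07. A gene below 20 CPM at month 2 passed the filter only through the 183 cells and so had to be higher in them. The medians printed below for lists with such genes are therefore given over all their detected genes as well, or instead. The month 2 cells were not selected for Cthrc1. Against month 2 cells that met the whole rule, 21 of 249 genes followed gave a weaker result and 12 a stronger one. Another 2 changed sign, and examples are given further below. As 1 of the 5 markers was used by the rule and the others were chosen on these cells, the counts for the lists that hold them are no independent evidence.

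**Figure D2:**
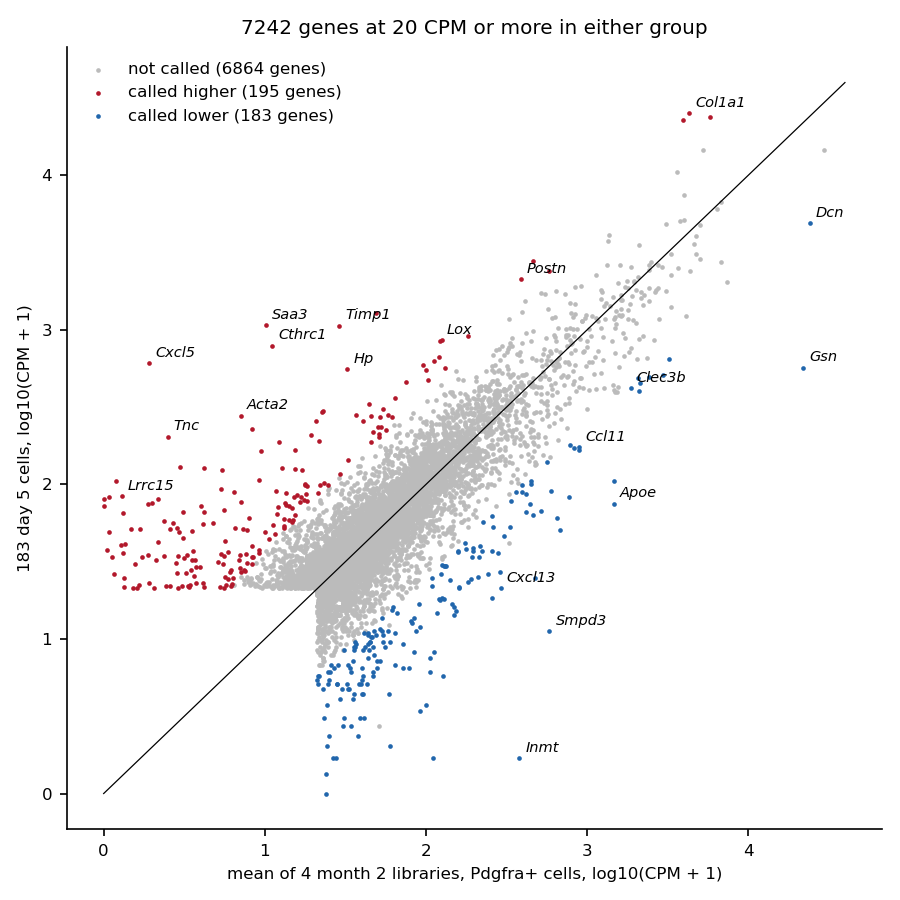
Levels of 7242 genes in the 183 day 5 cells against the mean of the Pdgfra+ cells of 4 month 2 libraries, as log10(CPM + 1); each point is 1 gene and the line marks equal levels. The genes called higher (red) include Cxcl5, Tnc and Lrrc15, which were near 0 at month 2, and those called lower (blue) include Gsn and Dcn, which were abundant there.

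Genes of the collagen matrix were higher in part. All 24 genes of the fibrillar and associated matrix list passed the filter, 7 were called higher and none lower, and their median log2 ratio was 1.52. Over all 7242 genes, 2.69% were called higher. Of the 7 genes, Tnc passed the filter only through the day 5 cells. Col1a1 was at 25364 CPM at day 5, and at month 2 it was at 4444 and 4085 CPM in sham and 4269 and 4361 CPM in PSNL libraries (5.91-fold). In the month 2 cells that met the whole rule it was at 9447 to 15678 CPM, and the log2 ratio against them was 0.96, without a call. Postn, encoding periostin, a matricellular protein of healing wounds, was at 2129 CPM against 238 and 302 CPM in sham and 601 and 407 CPM in PSNL libraries (5.50-fold). Here the PSNL libraries lay above the sham libraries, although both were far below day 5.

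Tenascin-C, a matrix glycoprotein that appears transiently after injury, showed the largest ratio in this list. Tnc was at 202 CPM (186 to 219) in the 183 cells and at 0 and 0.855 CPM in the sham and 0.311 and 4.80 CPM in the PSNL libraries at month 2, or 136-fold higher. Most month 2 UMIs of Tnc came from the PSNL library of batch 2, and without that library the log2 ratio moved from 7.08 to 9.02. It was not restricted to these cells, with 436 CPM in Sox10+ and 145 CPM in Myh11+ cells of day 5. Spp1, encoding the secreted phosphoprotein osteopontin, was at 853 CPM against 84.0 to 175 CPM (6.80-fold), and Col12a1, a fibril-associated collagen, at 278 CPM against 23.3 to 76.0 CPM (6.23-fold). Col3a1 and Bgn, the latter encoding the proteoglycan biglycan, passed narrowly at 4.14-fold and 4.11-fold, and both fell below 4-fold with TMM scaling. Fn1, encoding fibronectin, was at 2619 CPM, close to its 1924 to 2762 CPM at month 2, and the type VI collagens Col6a1, Col6a2 and Col6a3 were 1.21-fold to 1.54-fold higher and not called.

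Enzymes that modify and cross-link collagen were partly higher as well. Of 15 genes of that list at 20 CPM or more, 5 were called higher and none lower, with a median log2 ratio of 1.06, or 1.03 over all 16 genes. Over all 7242 genes, 2.69% were called higher. Of the 5 genes, P4ha3 was below 20 CPM at month 2 and passed only through the day 5 cells. Beside Lox, its homologue Loxl2 was at 668 CPM against 114 to 131 CPM (5.60-fold). Plod2, a lysyl hydroxylase of the collagen telopeptides, was at 363 CPM against 52.7 to 80.9 CPM (5.70-fold). P4ha3, a subunit of prolyl 4-hydroxylase, was at 88.2 CPM against 2.78 to 9.51 CPM (16.2-fold), whereas P4ha1 and P4ha2 were 1.46-fold and 1.99-fold higher and not called. Fkbp10, a collagen chaperone of the endoplasmic reticulum, sat at the threshold with 4.01-fold and lost its call in several alternatives. None of the 16 genes of protein folding and secretion was called, but their median log2 ratio was 0.81, with Hspa5 at 1478 CPM against 589 to 1116 CPM.

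Of 10 genes of activated fibroblasts and myofibroblasts that passed the filter, 7 were called higher, among them Cthrc1, which the rule used. Over all 7242 genes, 2.69% were called higher. The median log2 ratio was 2.93 over all 11 genes of the list. Cthrc1, Acta2, Lrrc15, Ncam1, Adam12 and Tagln were below 20 CPM on the month 2 mean, so that they passed only through the day 5 cells. Acta2, the smooth muscle actin of contractile myofibroblasts, was at 277 CPM against 1.30 and 11.1 CPM in sham and 5.91 and 6.00 CPM in PSNL libraries (45.6-fold). This was still far from the 16333 CPM of Myh11+ cells of the same library. Lrrc15, a surface protein known from activated fibroblasts of tumours, was at 82.7 CPM, with 6 UMIs in all 4 month 2 libraries together (0 to 0.858 CPM). Adam12, a metalloprotease of activated mesenchyme, was at 123 CPM against 9.51 and 10.3 CPM in sham and 25.5 and 19.2 CPM in PSNL libraries (7.64-fold), and Runx1, a transcription factor, at 279.9 CPM (4.87-fold). The adhesion molecule Ncam1 was at 165 CPM (11.6-fold) and likewise at 179 CPM in Sox10+ cells. Fap, encoding fibroblast activation protein, did not follow: it was at 86.8 CPM, below the 108 to 176 CPM of month 2.

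**Figure D3:**
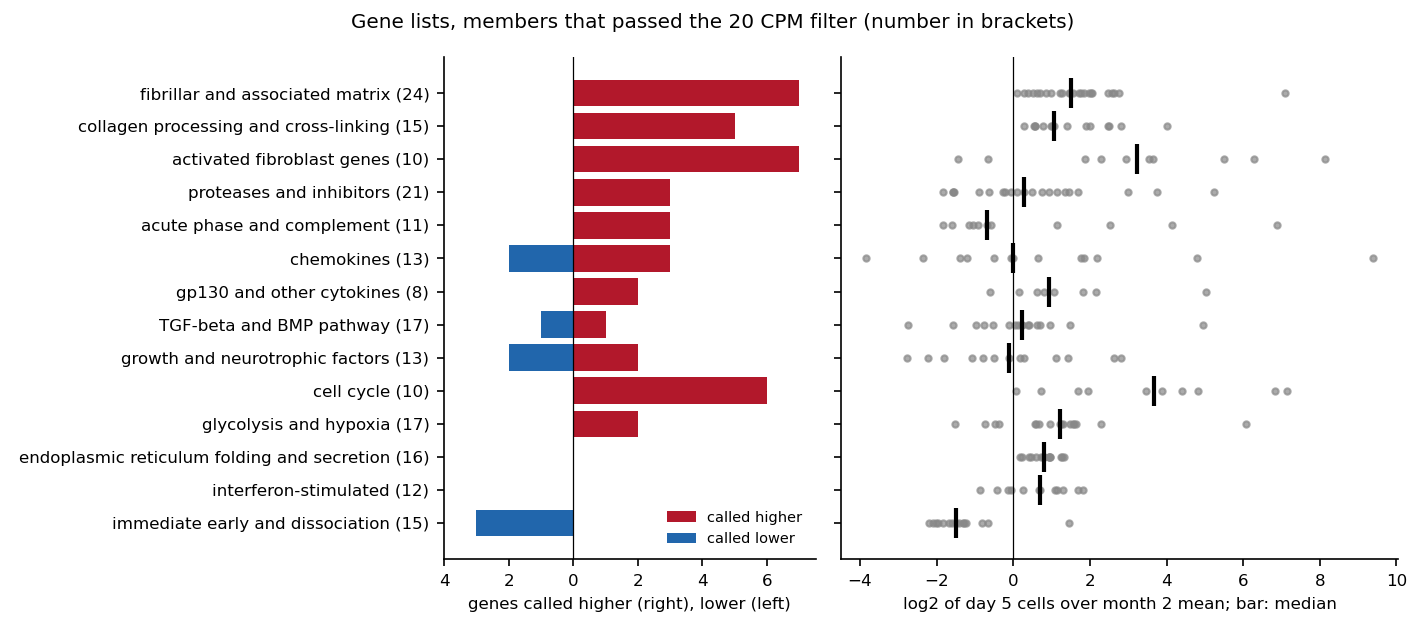
Genes called higher or lower in the 183 cells against month 2 in 14 gene lists (left, with the number of genes that passed the filter in brackets) and the log2 ratio of each of these genes (right, with the median as a bar). Matrix, collagen processing, activated fibroblast and cell cycle genes lay mostly to the right of 0, and immediate early genes to the left. Genes below 20 CPM at month 2, among them most called activated fibroblast genes, passed only through the 183 cells and could only lie to the right.

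Acute-phase and complement genes were divided. Of 11 genes that passed the filter, 3 were called higher and none lower, yet the median log2 ratio was -0.67, or -0.57 over all 15 genes. Over all 7242 genes, 2.69% were called higher, and Saa3 passed the filter only through the day 5 cells. Beside Saa3, haptoglobin (Hp), a haemoglobin-binding plasma protein, was at 557 CPM against 8.64 and 56.5 CPM in sham and 29.2 and 31.1 CPM in PSNL libraries (17.8-fold). Ptx3, a pentraxin that binds microbes and apoptotic cells, was at 306 CPM against 23.8 and 55.8 CPM in sham and 73.1 and 60.4 CPM in PSNL libraries (5.75-fold). C3, the central complement component, was at 1527 CPM, below the 1716 to 3162 CPM of month 2, and was not called.

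Promoters of Saa3 and Ptx3, and of Il6, whose product induces acute-phase genes in the liver, are shown because all 3 genes were called higher and each window holds the C/EBP motif TTGCNNAA. C/EBP factors are activators of acute-phase genes. The windows are RefSeq promoters of the build GRCm38.p6, from 250 bases before to 50 after the start of transcription, written 5′ to 3′ on the gene's strand, at chr7:46715627-46715926 (- strand), chr3:66219637-66219936 (+ strand) and chr5:30012864-30013163 (+ strand). Capitals mark motif matches on either strand. These are the C/EBP motif at bases 152 to 159 of the Saa3 window, 194 to 201 of the Ptx3 window and 123 to 130 of the Il6 window, counted from its 5′ end, and in Il6 also the AP-1 motif TGANTCA at bases 2 to 8 and the NF-kB motif at bases 207 to 216.
Saa3: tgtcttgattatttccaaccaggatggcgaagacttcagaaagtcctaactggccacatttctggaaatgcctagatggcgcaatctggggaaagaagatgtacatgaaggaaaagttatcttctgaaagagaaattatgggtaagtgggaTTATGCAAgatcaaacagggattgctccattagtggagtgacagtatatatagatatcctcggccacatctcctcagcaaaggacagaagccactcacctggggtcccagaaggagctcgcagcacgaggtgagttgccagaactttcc
Ptx3: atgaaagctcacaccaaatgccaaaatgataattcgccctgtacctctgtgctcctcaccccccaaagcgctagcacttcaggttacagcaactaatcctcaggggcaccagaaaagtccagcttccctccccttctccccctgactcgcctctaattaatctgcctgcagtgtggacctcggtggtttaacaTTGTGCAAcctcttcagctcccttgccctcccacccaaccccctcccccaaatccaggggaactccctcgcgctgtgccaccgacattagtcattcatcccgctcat
Il6: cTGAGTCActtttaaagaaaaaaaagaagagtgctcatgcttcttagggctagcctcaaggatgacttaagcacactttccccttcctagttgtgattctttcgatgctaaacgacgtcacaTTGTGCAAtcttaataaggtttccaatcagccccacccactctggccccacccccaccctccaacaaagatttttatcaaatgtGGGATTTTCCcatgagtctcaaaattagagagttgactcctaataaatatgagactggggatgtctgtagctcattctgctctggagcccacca

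Over the whole table, TTGCNNAA occurred in 20 of the 137 genes called higher that have a promoter entry (14.6%), in 10.2% of the 5648 tested genes with an entry and in 12.2% of all 27018 genes with an entry. TGANTCA occurred in 11 of the 137 genes (8.03%), against 5.95% of tested genes and 8.98% of all genes, and the NF-kB motif in 6 (4.38%), against 1.89% of tested and 1.90% of all genes. The STAT motif TTCNNNGAA (5.11%) and the TEAD motif GGAATG (11.7%) were in smaller shares of the 137 genes than of tested genes (7.90% and 13.6%). No set test was made, and a match is only a run of letters, not a bound site.

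Chemokines were divided. Of 13 that passed the filter, 3 were called higher and 2 lower, where 2.69% and 2.53% of all 7242 genes were. The median log2 ratio was -0.02, or 0.50 over all 16 genes of the list. Cxcl5 and Cxcl9 were below 20 CPM on the month 2 mean, so that they passed only through the day 5 cells. Cxcl9, an interferon-induced chemokine for T cells, was at 124 CPM against 2.16 to 8.09 CPM (27.9-fold), but Cdh5+ day 5 cells held it at 879 CPM and 1 of the 183 cells gave 39.2% of its UMIs. Ccl8, an attractant of monocytes, was at 143 CPM against 23.7 to 38.0 CPM (4.51-fold). The monocyte attractants Ccl2 and Ccl7 were at 243 CPM against 35.4 to 125 CPM and at 343 CPM against 53.9 to 149 CPM, below the 4-fold limit with 3.59-fold and 3.40-fold. In the opposite direction, the eosinophil attractant Ccl11 was at 173 CPM against 631 to 1138 CPM (5.16-fold lower) and the B cell attractant Cxcl13 at 20.2 CPM against 159.5 to 473 CPM (14.3-fold lower). Against month 2 cells that met the whole rule, the difference in Cxcl13 changed sign.

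Of the gp130 and other cytokine genes, 2 of 8 that passed the filter were called higher and none lower, where 2.69% of all 7242 genes were called higher. Both genes were below 20 CPM on the month 2 mean, so that they passed only through the day 5 cells. The median log2 ratio of the 8 genes was 0.93, or 1.01 over all 14 genes. Il6, encoding interleukin-6, was at 77.5 CPM against 9.08 and 10.9 CPM in sham and 39.5 and 9.95 CPM in PSNL libraries (4.47-fold), and the call was lost when either batch 2 month 2 library or the sham library of batch 1 was left out, while without the PSNL library of batch 1 the log2 ratio moved from 2.16 to 2.96. Tnfrsf11b, encoding the decoy receptor osteoprotegerin, was at 55.2 CPM against 0 to 3.11 CPM (32.9-fold). Lif and Clcf1, other gp130 ligands, stayed below the filter at 16.1 and 5.49 CPM. In Sox10+ day 5 cells they stood at 22.3 and 83.6 CPM. The receptor subunits Il6st and Osmr were at 521 and 96.4 CPM, 1.76-fold and 1.53-fold above month 2.

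Of 21 proteases and inhibitors, 3 were called higher, where 2.69% of all 7242 genes were, and the median log2 ratio was 0.29, or 0.63 over all 24 genes. Beside Timp1, Plaur, the urokinase receptor, was at 34.3 CPM against 3.21 to 5.62 CPM (7.90-fold), and it passed the filter only through the day 5 cells. Timp2 and Timp3, the other members of the Timp family in the list, were 3.57-fold and 2.91-fold lower than at month 2 and not called. Among metalloproteinases, Mmp14, a membrane-bound collagenase, was at 591 CPM (2.20-fold) and Mmp3, a stromelysin, at 114 CPM (0.533 of the month 2 mean). Neither was called.

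The transforming growth factor β pathway was represented by 17 genes, with a median log2 ratio of 0.22, or 0.12 over all 19. Of the 17 genes, 1 was called higher and 1 lower, where 2.69% and 2.53% of all 7242 genes were. Both encode latent TGF-β binding proteins: Ltbp2 was at 65.5 CPM against 0.864 to 3.11 CPM (31.1-fold) and Ltbp4 at 89.2 CPM against 413 to 803 CPM (6.66-fold lower). Ltbp2 passed the filter only through the day 5 cells. The ligands Tgfb1, Tgfb2 and Tgfb3 were 1.17-fold, 1.03-fold and 1.62-fold above month 2 and not called. Of 13 growth and neurotrophic factors, Ptn (pleiotrophin) was at 456 CPM against 4.32 and 64.8 CPM in sham and 105 and 121 CPM in PSNL libraries (6.19-fold) and Pdgfa at 86.8 CPM against 7.78 to 17.3 CPM (6.97-fold). Fgf10 and Ntf3, the latter a neurotrophin for proprioceptive neurons, were lower, at 8.58 CPM against 40.2 to 107 CPM and at 5.83 CPM against 18.0 to 39.2 CPM. Pdgfa passed the filter only through the day 5 cells, and Fgf10 and Ntf3 only through the month 2 cells. Against month 2 cells that met the whole rule, the difference in Ntf3 changed sign. The median log2 ratio of the 13 growth and neurotrophic factors was -0.11, or 0.85 over all 20 genes of the list. Gdnf, a neurotrophic factor that Schwann cells make after injury, was at 2.06 CPM in these cells and at 62.3 CPM in Sox10+ cells.

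Cell cycle genes were partly higher. Of 10 cell cycle genes at 20 CPM or more in either group, 6 were called higher, where 2.69% of all 7242 genes were. Among the 6 genes, Mki67, Top2a and Birc5 stood at 0.353, 2.47 and 3.74 CPM on the month 2 mean. They passed only through the day 5 cells and so had to be higher in them. All 18 genes of the list had a median log2 ratio of 3.18, and 8 of them were below the filter. Mki67, a nuclear protein of cycling cells, was at 40.1 CPM against 0 to 1.07 CPM. After thinning to 1000 UMIs, 1.09% (0.133 to 3.89) of the 183 cells had a Mki67 UMI, against 8.11% of Sox10+ cells, and without thinning 15.3% and 38.2%, at median depths of 13303 and 13210 UMIs. The median log2 ratio of 17 glycolysis and hypoxia genes that passed the filter was 1.21, and the same over all 19. Of the 17 genes, 2 were called higher: Slc16a3, a lactate exporter, was at 78.9 CPM against 0.622 to 1.92 CPM (67.1-fold) and Pfkl, a phosphofructokinase, at 20.6 CPM against 2.59 to 5.35 CPM. Both were below 20 CPM at month 2, so that they passed only through the day 5 cells. After thinning to 1000 UMIs, 3.28% of the 183 cells and 51.9% of Ptprc+ day 5 cells had a Slc16a3 UMI. Ldha, lactate dehydrogenase, was 2.94-fold higher and not called. None of 12 interferon-stimulated genes was called (median log2 ratio 0.69, and the same over all 14 genes of the list).

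Immediate early genes went the other way, with 3 of 15 called lower, none higher and a median log2 ratio of -1.49. Over all 7242 genes, 2.53% were called lower. Fos was at 488 CPM against 1347 and 2515 CPM in sham and 2280 and 2141 CPM in PSNL libraries (4.25-fold lower), and Atf3 and Zfp36 were 4.58-fold and 4.04-fold lower. These genes are known to respond to tissue dissociation. In Myh11+ cells all 3 were called lower at day 5 as well, and in Cdh5+ cells none was called. In Sox10+ cells Fos was called lower and Atf3 higher, at 653 CPM against a month 2 mean of 151 CPM. Differences in handling between the libraries were not tested.

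Several genes that were abundant at month 2 were lower at day 5. Dcn, encoding the proteoglycan decorin, was at 4929 CPM against 21724 and 30662 CPM in sham and 15319 and 28272 CPM in PSNL libraries (4.87-fold lower), and Lum (lumican) was 4.75-fold lower. Gsn, encoding the actin-severing protein gelsolin, was at 568 CPM (541 to 597) against 16384 to 28907 CPM, or 38.7-fold lower. Inmt, a methyltransferase, had 2 UMIs in the 183 cells (0.686 CPM) and stood at 229.5 to 469.8 CPM at month 2, with no overlap. The complement gene C7 likewise had 2 UMIs, against 39.2 to 214 CPM. Smpd3, a neutral sphingomyelinase, was at 10.3 CPM against 331 to 1110.4 CPM (56.5-fold lower) and Adh1, an alcohol dehydrogenase, at 2.74 CPM against 50.8 to 131 CPM (35.8-fold lower).

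Some markers of resting fibroblast subtypes were called lower and others were not, where 2.53% of all 7242 genes were called lower. Of the Col15a1 list, 3 of 4 were called lower, with Col15a1 at 88.2 CPM against 294 to 503 CPM, Penk 6.39-fold and Hmcn2 20.2-fold lower. Of the Pi16 list, Clec3b was called (4.46-fold lower) and Pi16 itself was not, at 423 CPM against 2379 and 969.7 CPM in sham and 1583 and 1293 CPM in PSNL libraries (3.68-fold lower). None of the 3 Ccl19 list genes was called. Of the endoneurial list, Angptl7 was at 35.0 CPM against 431 and 437 CPM in sham and 72.5 and 173 CPM in PSNL libraries (7.96-fold lower). Of the Cilp list, Comp was 4.35-fold lower, a call lost without the sham library of batch 1 (log2 ratio -1.54), whereas Cilp and Sfrp4 were close to month 2, at 344 CPM against 317 to 492 CPM and 1358 CPM against 1229 to 1942 CPM.

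The 12 genes with the largest ratios also held genes outside the lists. Tnn, encoding tenascin-W, was at 82.3 CPM (72.2 to 93.4) with 1 UMI in the month 2 libraries. Serpinb2, a plasminogen activator inhibitor, was at 79.9 CPM with 0 UMIs at month 2, at least 427-fold higher against a floor of 3 UMIs over the 4 libraries, but 14 of the cells held all of its 233 UMIs. Car4, a membrane carbonic anhydrase, was at 104 CPM with 3 UMIs at month 2, and Nos2, inducible nitric oxide synthase, at 36.4 CPM with 1. S100a9 and S100a8, also in this top group, were not spread over the cells: 1 cell held 204 of 208 S100a9 and 183 of 187 S100a8 UMIs and all 18 Il1b UMIs, together with 5 Ptprc, 32 Cthrc1, 3 Pdgfra and 297 Col1a1 UMIs of its total of 26571. Without that cell, 189 genes were called higher and 182 lower, and S100a8 and S100a9 were no longer called. Imprinted RNAs that are high in fetal tissue were among the abundant higher genes, with H19 at 1281 CPM against 13.4 to 69.9 CPM (26.6-fold) and Meg3 at 2767 CPM against 348 to 616 CPM (5.98-fold); both were chosen after their values were seen.

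Part of the difference from month 2 was shared with other day 5 cells. Of the 195 higher genes, 114 were also at least 4-fold above the month 2 mean in the 43 Pdgfra+ day 5 cells without Cthrc1, as were 130 (1.8%) of the 7242 genes compared. In the other classes, each set against its own class at month 2, 40 of the 110 that passed the filter in Sox10+ cells were called higher there (where 3.85% of genes tested were called), 47 of 122 in Cdh5+ cells (3.64%) and 58 of 108 in Myh11+ cells (3.56%). The genes called in all of them were Timp1, Tnc, Fblim1, Cdkn3, Ccnb2, Hmmr and Hells, and of the 67 that passed the filter in all 3 classes, 14 were called in none. These classes come from the same day 5 library, and some month 2 libraries held few of them, 5 Sox10+ cells at the least.

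Set against the other lineages of day 5, the count of genes at least 4-fold above the highest class turned on 1 small class. With the Sox10+, Cdh5+, Myh11+, Cldn1+ and Ptprc+ classes it was 21 of 10541 genes (0.199%), where a class at 0 UMIs was set to a floor of 3 UMIs. The Cldn1+ class held 8 cells with 23572 UMIs, so that its floor was 127 CPM and genes below 4 times that level could not pass if it had no UMI of them. It was also mixed in content. Its fibroblast markers summed to 46241 CPM and its leukocyte markers to 42550.5 CPM, against 2206 CPM for perineurial markers. Without that class, an alternative chosen after seeing the data, the count was 161 of 9697 genes (1.66%). Among the 21 genes were 4 of the 5 markers, all but Timp1, and genes not called against month 2: Sfrp2 and Sfrp1, secreted Wnt antagonists, at 622 and 409 CPM, Fbn1, encoding fibrillin-1, at 1704 CPM, Col14a1 at 1197 CPM and Igf1, insulin-like growth factor 1, at 1434 CPM. Sfrp2 stood at 0.174 CPM in Sox10+ and 0 CPM in Cdh5+ and Myh11+ cells. Of the 21 genes, 6 were also called higher than at month 2, which were the 4 markers, H19 and Vcan, the latter encoding the proteoglycan versican at 913 CPM. Of the 161 genes, 26 were, among them Col1a1, Col3a1, Postn, P4ha3, Plod2, Ltbp2, Ptx3, Lrrc15 and Tnn.

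Compared with the 43 Pdgfra+ cells without a Cthrc1 UMI, 86 of 7612 genes were at least 4-fold higher (1.13%) and 164 lower (2.15%). Of the 86 genes, 79 had 3 or fewer UMIs in the 43 cells, so that their order rests on single UMIs and on the floor of 3 UMIs set for genes at 0. Beside Cthrc1, which the rule fixed, they include Lrrc15 (82.7 against 3.59 CPM), Tagln, encoding the actin-binding protein transgelin (75.5 against 3.59 CPM), Mmp3 (114 against 7.19 CPM) and Tnfrsf11b (55.2 against 3.59 CPM), each with 1 or 2 UMIs in the 43 cells, and Tnn, with 0. Inmt, Klf15 and Galnt15, which were also among the genes lowest against month 2, stood at 71.9, 28.7 and 53.9 CPM without Cthrc1 and at 0.686, 0.343 and 1.03 CPM with it. Col1a1 was at 10046 CPM and Postn at 776 CPM without Cthrc1, between month 2 and the 183 cells, and Gsn at 7372 CPM was likewise between. The 43 cells were shallower and gave 278332 UMIs in all, so that low genes were measured less precisely in them.

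The markers differed in how widely they were spread among the 183 cells, with Timp1 between Lox and Cxcl5 in the share held by the top cells. Lox and Timp1 had a UMI in 93.4% and 95.1% of cells, and Postn in 95.1%. Saa3 and Cxcl5 had a UMI in 42.6% each. The 19 cells with most UMIs of a gene held 89.1% of Saa3 and 73.3% of Cxcl5 UMIs, but 35.9% of Lox and 59.0% of Timp1 UMIs.

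After thinning to 1000 UMIs, Saa3 had a UMI in 20.8% of cells (15.1 to 27.4), against 1.19% of Sox10+ day 5 cells and 0.331% to 1.29% of month 2 Pdgfra+ cells. Cxcl5 had a UMI in 23.0% (17.1 to 29.7), against 0.239% of Sox10+ and 0 to 0.331% of month 2 cells, and Lox in 47.0% (39.6 to 54.5), against 0 of 419 Sox10+ cells, where a floor of 3 counts allows a share of up to 0.716% and the exact upper limit is 0.877%, and 6.96% to 8.82% of month 2 cells. Sox10+ cells serve as the class that should lack these genes, at a median of 13210 UMIs, and unthinned their shares were 7.64%, 2.15% and 1.43%. Timp1 had a UMI in 39.9% (32.7 to 47.4) of the thinned cells and in 45.1% of Sox10+ cells. In the 43 Pdgfra+ day 5 cells without Cthrc1, the thinned shares were 18.6% (8.39 to 33.4) for Saa3 and 16.3% (6.81 to 30.7) for Cxcl5, with intervals that overlap those of the 183 cells.

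**Figure D4:**
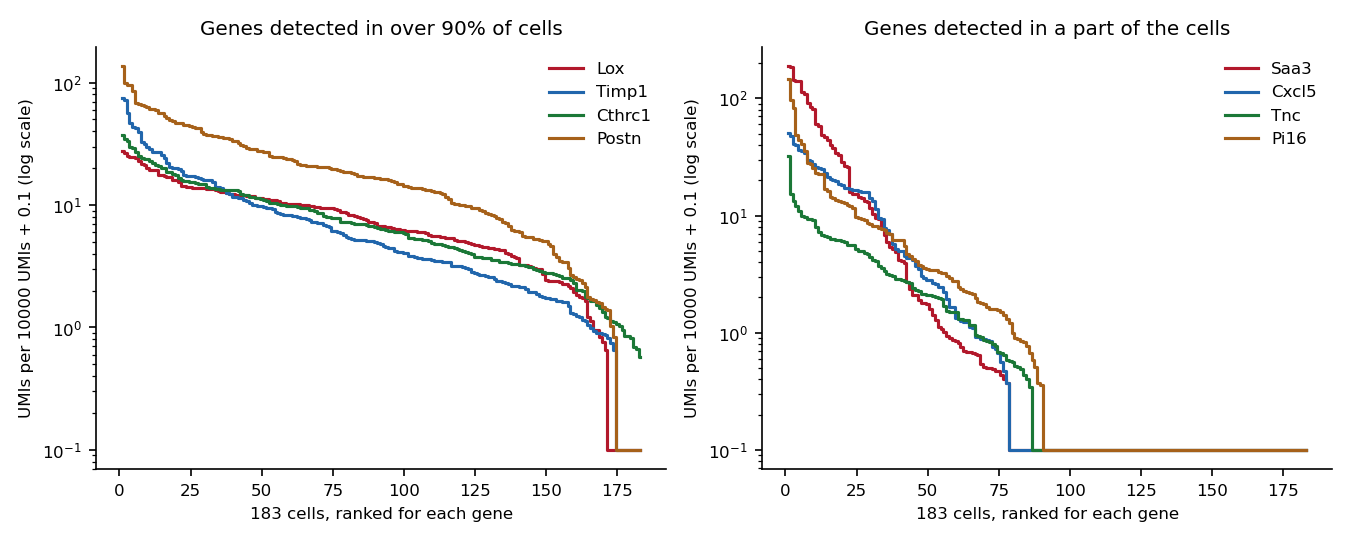
UMIs per 10000 UMIs (+ 0.1, log axis) of 8 genes in the 183 cells, ranked separately for each gene. Lox, Timp1 and Postn were detected in 93.4% to 95.1% of cells and, like Cthrc1, which the rule required, declined gradually, whereas Saa3, Cxcl5, Tnc and Pi16 dropped to 0 before rank 100.

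Further genes were found in part of the cells. Spp1 had a UMI in 32.2% of cells and 88.4% of its UMIs in the top 19 cells, Acta2 32.2% and 82.1%, and Hp 51.9% and 71.1%. Apod, a lipocalin of the Ccl19 list, was at 2035 CPM over all cells, but 94.9% of its UMIs lay in the top 19 cells and 25.4% in 1 cell. In 179 cells thinned to 3000 UMIs, Cxcl5 was correlated across cells with Timp1 (Spearman rho 0.45), Ccl2 (0.45) and Tnc (0.41), and Postn with Col1a1 (0.46), whereas Pi16 was inversely related to Cxcl5 (-0.35), Timp1 (-0.34) and Tnc (-0.31). These cells share 1 library and no test was made.

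Leiden clustering divided the 183 cells into 5 sub-clusters, which are described by number, since their leading genes were found on the same cells. Sub-cluster 0 (56 cells) had the highest level of the Pi16 list, with Pi16 at 1288 CPM in 48 of 56 cells and Clec3b at 1134 CPM, below its 1627 to 2258 CPM at month 2. Sub-cluster 1 (51 cells) held most of the Saa3, at 2632 CPM with a UMI in 37 of 51 cells, with 17.6% of it from 1 cell. Its first leading genes, S100a9 and S100a8, came from the single cell described above. Cxcl9 was at 450.4 CPM with a UMI in 23 cells, 42.2% of it from 1 cell, and Cd74, the invariant chain of class II MHC, at 202 CPM with a UMI in 12 cells.

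Sub-cluster 2 (36 cells) was the deepest, with a median of 24895 UMIs against 11756 to 15304.5 in the others. Spp1 was at 2475 CPM in 32 of its 36 cells, Acta2 at 802 CPM in 30, Timp1 at 2189 CPM and Cxcl5 at 1288 CPM, and it held all Serpinb2 UMIs. Cell cycle genes summed to 1233 CPM there against 238 to 332 CPM elsewhere and glycolysis genes to 5048 against 1328 to 2389 CPM, while the fibrillar matrix list was lower than in sub-clusters 0, 1 and 3, at 61488 CPM against 102158 to 117729 CPM. Depth moved with these values and its part in them was not tested.

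Sub-cluster 3 (32 cells) carried Cilp at 1302 CPM, Comp, a cartilage oligomeric matrix protein, at 216 CPM in 14 cells, the proteoglycan Fmod at 193 CPM and Mgp, matrix Gla protein, at 3945 CPM in all 32. Sub-cluster 4 had only 8 cells, with Apod at 50099 CPM in all 8, Angptl7 at 762 CPM in 7 and the transcription factor Sox9 at 583 CPM, and low Lox (18.8 CPM) and Postn (122 CPM). Cthrc1, which the rule required in every cell, was at 777, 852, 516, 1210 and 1138 CPM in sub-clusters 0 to 4.

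**Figure D5:**
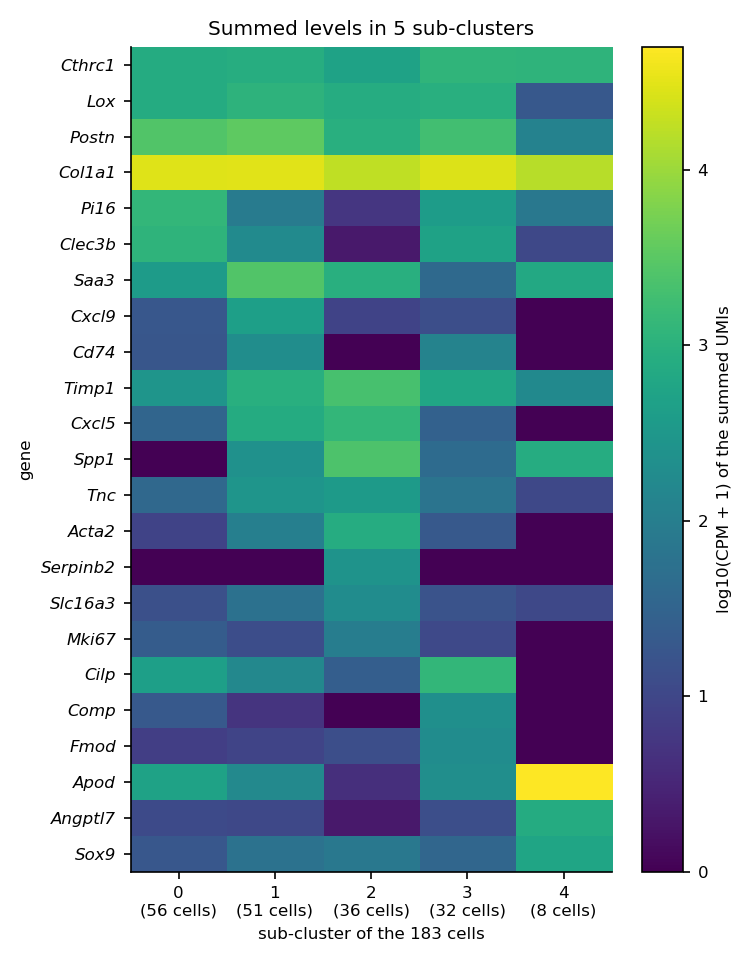
Summed level, as log10(CPM + 1), of 23 genes in 5 sub-clusters of the 183 cells, with the number of cells under each. Col1a1 was high in every sub-cluster, Pi16 and Clec3b were highest in 0, Saa3 and Cxcl9 in 1, Timp1, Spp1 and Acta2 in 2, Cilp and Comp in 3 and Apod and Angptl7 in 4.

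Replicated libraries were at hand at month 2 only, where the rule was applied to sham and PSNL nerves. The same rule found 16 and 25 cells in the sham and 22 and 45 cells in the PSNL libraries. Thinned to 1000 UMIs, 1.23% and 0.402% of sham and 0.884% and 1.19% of PSNL Pdgfra+ cells had a Cthrc1 UMI, against 36.3% (30.01 to 42.9) at day 5; without thinning the shares were 3.92% and 2.51% in sham, 2.43% and 4.45% in PSNL and 81.0% at day 5. The groups overlapped, and the difference of 0.222 percentage points was not separable from the spread (two-sided exact permutation test, p = 1, n = 2 per group, where the smallest p possible is 0.333). Within batches it had opposite signs, -0.342 points in batch 1 and 0.785 points in batch 2. The month 2 cells that met the rule differed from those of day 5 in content: they held 7 Saa3, 1 Cxcl5 and 3 Tnc UMIs in all, while Col1a1 was at 9447 to 15678 CPM. Against these cells Lox, Col1a1 and Col3a1 were less than 4-fold higher at day 5, with log2 ratios of 1.82, 0.96 and 0.91.

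Between PSNL and sham Pdgfra+ cells of month 2, edgeR's quasi-likelihood test called 0 of 13919 genes at an adjusted p of 0.05 (0%), with 273 (1.96%) at an unadjusted p under 0.05, and DESeq2 called 1. Of the 273 genes, 120 were higher in PSNL and the others lower. With the batch as a replicate block, edgeR called 1 gene, which was lower in PSNL. Of the 195 genes higher at day 5, 148 were tested and 14 (9.46%) had an unadjusted p under 0.05, 10 of them higher in PSNL. Postn was among these, with a log2 fold change of 0.87 ± 0.29 (SE, edgeR adjusted p = 1.00), as was Adam12, with 1.13 ± 0.30 (edgeR adjusted p = 1.00). Of the 183 genes lower at day 5, all were tested and 20 (10.9%) had an unadjusted p under 0.05, 18 of them lower in PSNL, among them Angptl7 with -1.88 ± 0.38 (edgeR adjusted p = 1.00). Since none passed the adjusted threshold, no month 2 difference in these genes was established.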

How the data were processed

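Single-cell libraries were made by the study with Chromium 10X 3' version 3 chemistry. The authors aligned reads to GRCm38 with kb-bustools (kallisto 0.46.2, bustools 0.40.0) and deposited raw UMI counts for every barcode, without normalization; annotation release and counting strand are not given in the sources used here. Of 6 labelled libraries, 5 were analysed, with 4099617 to 19557393 UMIs. Gene coordinates were read from GENCODE vM21.

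Cells had at least 1000 UMIs and under 10% mitochondrial UMIs. UMIs were summed per group of cells and library and scaled to CPM. A gene was called against month 2 at 4-fold from the mean of the 4 libraries and outside their range, among genes at 20 CPM or more in either group. Cells share 1 library, so no p-value was computed for them. Named genes were those of the fixed lists, and the 12 highest and 12 lowest genes called against month 2 and the 5 highest and 5 lowest against Pdgfra+ cells without Cthrc1, leaving out unnamed models, mitochondrial and ribosomal genes. The cells, lists and tests were chosen with earlier results of these data known. Lists came to 307 genes, and Aldoa was left out because 2 identifiers carry that symbol.

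PSNL and sham were compared at month 2 with edgeR 4.0.16 (quasi-likelihood, TMM, filterByExpr, Benjamini-Hochberg) in R 4.3.3, with DESeq2 1.42.0 as an alternative. The labels state that the batch 1 libraries shared sorting and sequencing and that those of batch 2 shared a day and a chip, and deviations from the group means correlated at 0.431 between libraries of a batch, so that batch pairs the libraries; the values reported come from the fit without the batch, and the fit with it as a block was an alternative; libraries come from pooled animals, so the spread is between pools. Sub-clusters used scanpy 1.11.5 and leidenalg 0.10.2 (1000 variable genes, 10 principal components, 15 neighbours, resolution 0.5, seed 1). Scrublet assumed 0.8% doublets per 1000 cells; it called at most 1.10% of any library; of the day 5 library it called 0.675%. Libraries shared at most 3 cell barcodes, and 1 of the 183 cells shared its barcode with the sham month 2 library of batch 1. Scripts were tested on simulated data. Tables and plots were made with pandas 2.3.3 and matplotlib 3.10.9, and intervals with scipy 1.17.1, under Python 3.11.15. Some genes of the lists are counted but not reported by name here.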

Additional observations from a re-analysis of the deposited data

How the results depend on the processing

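With 1 day 5 library analysed here, no alternative that was run separates time from library. Of the day 5 cells, 1.42% met the rule when cells were thinned to 1000 UMIs before it was applied. The counts of genes higher and lower than at month 2 were 115 and 110 with a filter of 50 CPM, 392 and 365 with 5 CPM, and 689 and 647 at 2-fold, and ranged from 187 to 201 and from 179 to 194 when 1 month 2 library was left out. With Cthrc1 required at month 2 too, the counts were 259 and 169, of which 145 and 109 were shared with the main lists, and Cxcl13 (log2 ratio 0.81) and Ntf3 (0.43) changed sign; the cause was not tested. After the data were seen, leaving out the cell with most S100a9 UMIs (189 and 182) and averaging CPM over cells (175 and 178) were added. Fkbp10, called at 4.01-fold, was not called with TMM (log2 ratio 1.93). Against Pdgfra+ cells without Cthrc1, 140 genes were higher after free RNA was subtracted, 28 higher and 66 lower with 50 CPM, and 1251 lower after thinning, where 1 UMI in few cells is a high level. Against every other day 5 class, 161 genes rather than 21 were higher once the Cldn1+ class of 8 cells was left out, a choice made after seeing the data. Sub-clusters numbered 9 at resolution 1. At month 2, edgeR called 1 gene with the batch as a replicate block, DESeq2 called 1, and 53 were called without a filter on low counts. Leaving out 1 library gave 0 to 150 calls, with 42 without the sham library of batch 1 and 150 without that of batch 2, where the lone sham library is assumed to vary like the PSNL libraries. The share of Cthrc1+ cells differed by -0.389 points with a minimum of 2000 UMIs, by -0.190 to 0.633 points with 1 library left out, and by 0.222 points in the paired analysis with the replicate block.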
